A study of Mus musculus with 11 samples.

Results

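The intermediate filament genes Krt8, Krt18, Krt19, Des, Synm, Vim, Nes and Lmna were followed in the tibialis anterior of mice, the fast muscle at the front of the shin, across loss of the nerve and targeting of Runx1. They were found as every probe set that the array annotation assigns to these 8 symbols alone, which gave 20 of the 45101 probe sets on the array and 8 of 18194 annotated genes. The genes were chosen by earlier results on these same arrays, above all the high keratin signals of denervated control muscle, so their change with denervation in control muscle is described here without a test. The signals of the other 3 groups were known as well, so the tests of these genes in the other comparisons are not independent of that choice. Of the 20 probe sets, 18 passed a filter on low signals (above the median of their own array on at least 2 arrays) and entered the tests. The only probe set of Krt19 and the dimmest of Nes did not.

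Total RNA was measured on 11 Affymetrix arrays. All mice, the controls included, had one floxed Runx1 allele and one null allele (runx1f/-); Runx1 encodes a transcription factor. The labels name nothing further for control mice. The other genotype added MCK::cre, a transgene that expresses Cre recombinase from the promoter of muscle creatine kinase and so acts in muscle fibres. The 4 groups were innervated control (3 arrays), control denervated for 3 days (3 arrays), innervated MCK::cre (2 arrays) and MCK::cre denervated for 3 days (3 arrays). The labels give no age and do not say whether arrays of a group came from separate animals, and p-values cover only the spread between these samples, which may be technical. Only one genotype carried Cre, so an effect of Cre and one of targeting Runx1 cannot be told apart. The treatment note of denervated control array 3 gives 5 days where its title gives 3. In whole muscle, fewer cells of a type and less RNA per cell cannot be told apart.

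Intermediate filaments are rope-like polymers of the cytoplasm and, as lamins, of the nuclear envelope. Keratins form them only as pairs of a type I chain such as Krt18 or Krt19 with a type II chain such as Krt8, and this pair is typical of simple epithelia. In adult muscle fibres desmin (Des) is the main subunit and ties the Z discs to each other and to the membrane, while synemin (Synm) joins desmin filaments and links them to other proteins. Vimentin (Vim) is the filament of fibroblasts, endothelium, leukocytes and immature muscle cells. Nestin (Nes) is found in myogenic precursors and, in mature fibres, at the neuromuscular and myotendinous junctions. Lmna encodes lamins A and C, which line the inner nuclear membrane.

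Krt8 and Krt18 lie beside each other on chromosome 15, in opposite orientation, with no other protein-coding gene between them in the RefSeq table. The 250 bases before each start are shown because both genes had the same order of groups and the results turn on them. The sequences are from RefSeq on GRCm38.p6, read 5′ to 3′ on the gene's own strand, and capitals mark matches to the E-box CANNTG, the kind of site that myogenic factors such as Myog bind. The Krt8 window is chr15:102004343-102004592 on the minus strand and the Krt18 window chr15:102027966-102028215 on the plus strand.
Krt8: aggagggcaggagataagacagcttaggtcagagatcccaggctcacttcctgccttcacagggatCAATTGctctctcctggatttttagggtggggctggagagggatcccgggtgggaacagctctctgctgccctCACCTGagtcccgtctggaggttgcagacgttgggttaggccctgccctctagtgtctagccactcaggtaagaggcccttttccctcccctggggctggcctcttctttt
Krt18: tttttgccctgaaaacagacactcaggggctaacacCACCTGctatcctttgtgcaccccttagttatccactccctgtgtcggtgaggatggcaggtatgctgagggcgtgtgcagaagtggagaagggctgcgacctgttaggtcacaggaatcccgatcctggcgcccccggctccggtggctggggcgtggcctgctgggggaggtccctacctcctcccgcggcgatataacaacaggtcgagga

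The Krt8 window held CANNTG at 184 and 111 bases before the start, and the Krt18 window held 1 at 214 bases. In each window 1 of the matches had the form CAGGTG (both strands searched), which 17.2% of all 32851 windows of this length hold, and 66.2% hold CANNTG, of which CAGGTG and CAGCTG are forms. Neither window held CAGCTG (13.0% of windows), the RUNX core TGTGGT (14.0%) or the AP-1 site TGANTCA (6.7%). Of the other windows, that of Des held 2 CANNTG, 1 of them CAGCTG, and that of Synm held 1, while those of Vim and Nes held none of the 5 motifs. A second Lmna window held 1 TGTGGT. These are matches of letters only.

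Krt18 (probe set 1448169_at) was the brightest keratin signal and read near background in muscle with its nerve. Its signals were 557.0, 387.7 and 508.4 in innervated control muscle and 73720, 72418 and 49029 in denervated control muscle. MCK::cre muscle gave 662.1 and 310.4 with the nerve and 10392, 13750 and 12930 without it. The groups separated completely, with the denervated control arrays highest, the denervated MCK::cre arrays between, and the innervated arrays of both genotypes lowest and overlapping. The lowest denervated control array, number 3, is the one with the 5-day note, and even so it lay well above every MCK::cre array.

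Krt8 has 3 probe sets, which gave the same order of groups. On the brightest (1420647_a_at) the signals were 33.98, 235.7 and 419.2 in innervated control muscle and 20327, 14881 and 19436 in denervated control muscle. MCK::cre muscle gave 239.6 and 225.6 with the nerve and 1858, 1844 and 2039 without it. The second probe set (1435989_x_at) read 146.2, 30.73 and 41.55 in innervated control, 21532, 14212 and 20060 in denervated control, 58.74 and 30.76 in innervated MCK::cre and 1066, 1596 and 836.2 in denervated MCK::cre muscle. The third (1423691_x_at) read 18639, 11686 and 16574 in denervated control and 1351, 1672 and 1770 in denervated MCK::cre muscle, and between 18.39 and 72.77 on the 5 innervated arrays. All 3 probe sets lay below the array median on every innervated array and above it on every denervated one, so they passed the filter only through the denervated muscle. Denervated control array 2 was the lowest of its group on each of them. Probe sets named x_at or s_at can also catch near-identical transcripts of other genes. The Krt8 signals of 1435989_x_at and 1423691_x_at may therefore include related sequences. The same holds for 1438118_x_at of Vim and for 1426868_x_at and 1457670_s_at of Lmna.

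Signals of the trp control probe sets, for bacterial RNAs absent from muscle, ranged from 13.82 to 440.0 over all arrays. Against the highest trp signal of its own array, the brightest Krt8 probe set was at or below background on 2 of 3 innervated control and 1 of 2 innervated MCK::cre arrays. The other Krt8 probe sets were so on all 5 innervated arrays, and Krt18 on 0 of 5. The Krt8 folds therefore rest wholly or partly on background signals. On the log2(signal + 16) scale Krt18 was higher in denervated than in innervated control muscle by 7.01 ± 0.26 (SE of the fit, n = 3 and 3), which is 129-fold. Krt8 was higher by 6.68 ± 0.55, 7.92 ± 0.42 and 7.95 ± 0.35 on its 3 probe sets. Over all 18 tested probe sets of the filament genes, 15 were higher and 3 lower in denervated control muscle, where 29.3% of all 26170 tested probe sets changed, 14.9% up and 14.4% down; nothing is read from that count, since this comparison chose the genes. With background raised to the highest trp signal of each array, Krt8 was at least 44.8-fold, 50.1-fold and 42.0-fold higher in denervated control muscle. Without innervated control array 1, which read only 33.98, the change of the brightest Krt8 probe set was 5.77.

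**Figure D1:**
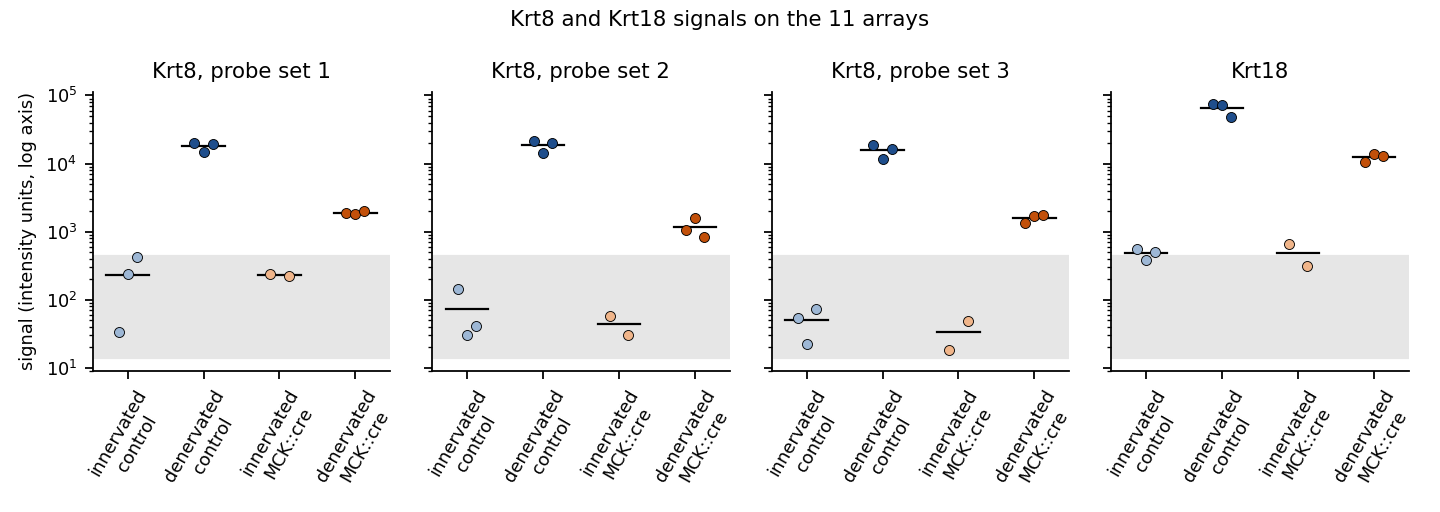
Signals of the 3 Krt8 probe sets and of Krt18 on each of the 11 arrays (log axis, intensity units), by group; points are arrays, lines are group means and the grey band is the range of trp control signals, 13.82 to 440.0. Denervated control arrays are highest, from 11686 to 73720, denervated MCK::cre arrays lie between, and the innervated arrays lie in or near the band.

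The keratins also rose with denervation in MCK::cre muscle. Krt18 rose 26.1-fold there (log2 change 4.71 ± 0.29 SE, n = 3 denervated and 2 innervated, limma adjusted p = 2.03e-07). The Krt8 probe sets rose by 2.96 ± 0.61, 4.27 ± 0.48 and 5.08 ± 0.39 (log2, limma adjusted p = 0.00324, 2.99e-05 and 1.37e-06), or at least 6.67-fold, 4.02-fold and 5.65-fold against the trp signals. Having passed the filter through denervated muscle alone, the Krt8 probe sets had to differ between denervated and innervated arrays, so nothing more is read from their calls here. Of the 15 tested probe sets of the other filament genes, Krt18 included, 5 rose, 3 fell and 7 did not pass in MCK::cre muscle. Of all 26170 tested probe sets 26.3% changed there, 13.1% up and 13.3% down.

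Denervated MCK::cre muscle held far less keratin RNA signal than denervated control muscle. Krt18 averaged 12357 ± 1750 (SD, n = 3) against 65055 ± 13895 (SD, n = 3), or 19.0% of the control mean, and fell by 2.38 ± 0.26 on the log2 scale (limma adjusted p = 3.67e-04). The brightest Krt8 probe set averaged 1913 ± 109.0 against 18215 ± 2921 (SD, n = 3 each), or 10.5%, and the others 6.27% and 10.2%. The log2 differences of the 3 probe sets were -3.23 ± 0.55, -4.01 ± 0.42 and -3.26 ± 0.35 (SE; limma adjusted p = 0.00789, 3.47e-04 and 3.66e-04). No MCK::cre array overlapped a control array on any of these 4 probe sets. The denervated signals of both genotypes lay above the trp range, so this difference does not rest on background. It does rest on signals that were known when the genes were picked.

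In all, 5 of the 18 probe sets fell and 0 rose in denervated MCK::cre against denervated control muscle, namely the 4 keratin probe sets and the brightest of Nes. Over all tested probe sets 1.83% changed, 1.02% down and 0.806% up. All 5 calls remained without denervated control array 3, at log2 differences of -3.17, -3.94 and -3.20 for Krt8, -2.57 for Krt18 and -1.24 for Nes (limma adjusted p = 0.0277, 0.00305, 0.00389, 6.75e-04 and 0.00692).

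With the nerve intact, no tested filament gene passed between genotypes, and Krt19 was not tested. Of the 18 probe sets 0 passed, and of all 26170 probe sets 0 did (0%), with 1030 of all probe sets and 0 of the 18 at an unadjusted p under 0.05 (limma). Krt18 averaged 486.2 ± 248.7 (SD, n = 2) in MCK::cre and 484.4 ± 87.18 (SD, n = 3) in control muscle, a log2 difference of -0.07 ± 0.29 (limma adjusted p = 0.998). The Krt8 differences were 0.50 ± 0.61, -0.36 ± 0.48 and -0.40 ± 0.39 (limma adjusted p = 0.998 each), and most of these signals lay at background, as given above.

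The interaction asks whether the change with denervation itself was smaller in MCK::cre than in control muscle. It was for Krt18, by -2.31 ± 0.38 on the log2 scale (limma adjusted p = 0.0276), and for the 2 dimmer Krt8 probe sets, by -3.65 ± 0.64 and -2.86 ± 0.52 (limma adjusted p = 0.0378 and 0.0462). The brightest Krt8 probe set, at -3.72 ± 0.82, did not pass (limma adjusted p = 0.110). So 3 of the 18 probe sets passed, all downward, where 0.248% of all tested probe sets passed, 0.164% downward and 0.0841% upward. These calls lay close to the threshold and ended under many other settings: over 19 alternatives Krt18 passed in 9, and the Krt8 probe sets, from brightest to dimmest, in 4, 8 and 6. The adjusted p ran from 0.00922 to 0.120 for Krt18 and from 0.00171 to 0.313 for Krt8 over these (limma). Without denervated control array 1 or 2, or without any single denervated MCK::cre array, 0 of the 18 passed, and without either innervated MCK::cre array 1 did. Without denervated control array 3 Krt18 alone remained (-2.50, limma adjusted p = 0.0217), and with the replicate number as a block the dimmest Krt8 probe set did not pass (-2.99, limma adjusted p = 0.0635).

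**Figure D2:**
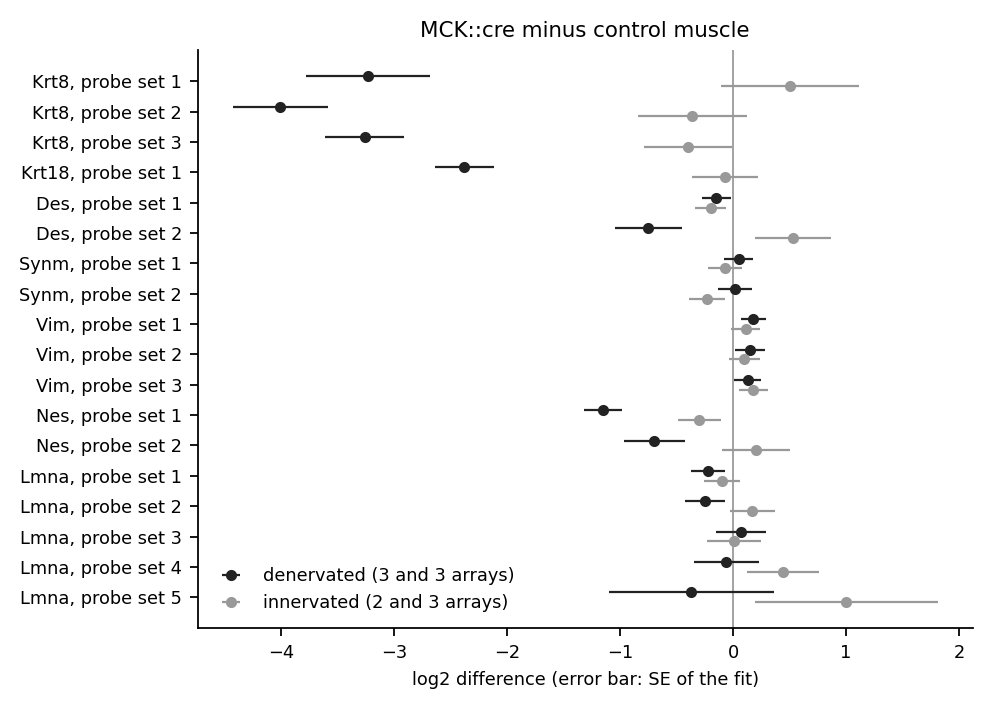
Log2 difference between MCK::cre and control muscle for the 18 tested probe sets, denervated (black) and innervated (grey); points are fitted differences and bars their SE. The keratin probe sets lie between -4.01 and -2.38 in denervated muscle and between -0.40 and 0.50 in innervated muscle.

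Krt19 (1417156_at), the other type I partner of simple epithelia, did not follow Krt18. Its signals were 198.0, 198.0 and 312.3 in innervated control, 388.9, 316.9 and 266.0 in denervated control, 439.1 and 698.2 in innervated MCK::cre and 449.3, 359.3 and 357.6 in denervated MCK::cre muscle. It lay above the array median on 1 array only, an innervated MCK::cre one, and was not tested. It was at or below the highest trp signal of its own array on 2 of 3 innervated control and 1 of 3 denervated control arrays and on 0 of the MCK::cre arrays. The highest values were those of an innervated and a denervated MCK::cre array. Both innervated MCK::cre arrays lay above every control array, with a mean of 568.7 against 236.1 in innervated control muscle, a difference that was not tested.

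Most other keratins on the array were too dim to test. Of 45 further Krt genes, 12 were tested. With denervation of control muscle 1 rose, 3 fell and 8 did not pass, where 29.3% of all tested probe sets changed. With the replicate number as a block in just the control arrays 4 fell. Krt80, a type II keratin, was the one that rose, from 537.9, 397.6 and 834.7 to 5526, 4728 and 4605, which is 8.54-fold (limma adjusted p = 1.08e-06). In MCK::cre muscle Krt80 rose 5.52-fold, from 689.7 and 462.3 to 3243, 2908 and 3453 (limma adjusted p = 2.79e-05). The denervated groups of the 2 genotypes did not overlap for Krt80, but their difference of -0.63 ± 0.24 did not pass (limma adjusted p = 0.315). Krt79, Krt4 and Krt222 fell in control muscle (limma adjusted p = 0.00797, 0.0229 and 0.0343), from mean signals of 1646 or less, Krt4 by 2.04-fold and Krt222 by 2.00-fold. Krt79 read at or below the highest trp signal of its array on 1 of 3 denervated control arrays and fell at least 1.87-fold against it. In MCK::cre muscle 1 of the 12 rose, 4 fell (1 with the replicate number as a block) and 7 did not pass, and 0 passed between genotypes in denervated muscle.

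Desmin was the brightest of the muscle filament genes and changed little. On its bright probe set (1426731_at) the signals were 100123, 85971 and 111171 in innervated control, 100963, 82548 and 87535 in denervated control, 82622 and 88507 in innervated MCK::cre and 81789, 76687 and 85452 in denervated MCK::cre muscle. The denervated MCK::cre arrays all lay below the innervated control arrays, and every other pair of groups overlapped. The change with denervation was -0.13 ± 0.13 in control and -0.07 ± 0.14 in MCK::cre muscle (log2, SE; limma adjusted p = 0.737 in the latter). Denervated muscle of the genotypes differed by -0.15 ± 0.13 (limma adjusted p = 0.753). The sign in control muscle turned with quantile normalization (0.10) and with centring on spike-in RNAs (0.70). That centring moved the median of all tested probe sets from -0.02 to 0.81 in control and from -0.09 to 0.38 in MCK::cre muscle, so the changes given here are relative to a median near 0.

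The second Des probe set (1426732_at) was far dimmer and did not track the first. With denervation of MCK::cre muscle it fell 2.09-fold (log2 SE 0.34), from 1029 and 1430 to 600.2, 381.4 and 818.8 (limma adjusted p = 0.0351), and differed by 0.21 ± 0.30 in control muscle. That call ended in 9 of 20 alternatives (adjusted p from 0.0200 to 0.227), among them the replicate block (-1.03, limma adjusted p = 0.0680) and leaving out denervated MCK::cre array 1 or 2 or either innervated MCK::cre array.

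Synemin fell with denervation in MCK::cre muscle and was lower in control muscle by much the same amount. On the brighter probe set (1457275_at) it read 88544, 90745 and 69913 in innervated and 30857, 33657 and 35254 in denervated control muscle. MCK::cre muscle went from 84025 and 73971 to 32292, 36346 and 34805. Innervated and denervated arrays did not overlap, while the genotypes did. The log2 change was -1.31 ± 0.13 in control and -1.19 ± 0.15 in MCK::cre muscle, 2.29-fold lower in the latter (limma adjusted p = 6.08e-05). The second probe set (1455610_at) changed by -1.35 ± 0.15 and -1.10 ± 0.16 (limma adjusted p = 3.08e-04 in MCK::cre). Denervated MCK::cre and control muscle differed by 0.05 ± 0.13 and 0.02 ± 0.15 (limma adjusted p = 0.936 and 0.981), and the interactions were 0.12 ± 0.19 and 0.25 ± 0.22 (limma adjusted p = 0.941 and 0.862). Synm stayed lower in denervated muscle with spike-in centring too (-0.48 and -0.52 in control muscle).

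Vimentin read modestly higher in denervated muscle. On the brightest probe set (1450641_at) it read 31291, 29928 and 34189 in innervated and 49328, 44401 and 49605 in denervated control muscle, a log2 change of 0.59 ± 0.11. In MCK::cre muscle it rose from 34854 and 33511 to 56434, 50445 and 55402, by 0.66 ± 0.13 (1.58-fold, limma adjusted p = 0.00185). The other probe sets changed by 0.28 ± 0.14 and 0.35 ± 0.13 there and did not pass (limma adjusted p = 0.171 and 0.0734), though denervated and innervated arrays did not overlap on either. On the brightest probe set the denervated MCK::cre arrays all lay just above the denervated control arrays. Between genotypes in denervated muscle Vim differed by 0.18 ± 0.11, 0.15 ± 0.13 and 0.13 ± 0.12 (limma adjusted p = 0.622, 0.734 and 0.781), and these signs turned with spike-in centring (-0.20, -0.23 and -0.25).

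Macrophages express Vim strongly, and the sum of their markers was higher in denervated muscle too. The summed signal of 10 macrophage markers was 23750 to 33448 in innervated control, 74320 to 116196 in denervated control, 19822 to 20889 in innervated MCK::cre and 99170 to 110631 in denervated MCK::cre muscle. The largest parts of the rise in control muscle were Lgals3 and Cd68, with means from 2356 to 37420 and from 938.8 to 14169. Of the 10, 5 rose, 0 fell and 5 did not pass in control muscle, where 14.9% of all tested probe sets rose. With the replicate number as a block 4 rose in the fit of all arrays and 6 in that of just the control arrays. Ptprc, Adgre1 and Itgam did not pass in control muscle (log2 changes -0.04, 0.26 and 0.12, limma adjusted p = 0.898, 0.283 and 0.815). In MCK::cre muscle 7 rose, Ptprc and Adgre1 among them, 0 fell and 3 did not pass, where 13.1% of all rose. As these markers were listed with earlier results of these data known, nothing is read from their counts. The sum over 7 fibroblast markers was 201726 to 260686 in innervated and 174612 to 222749 in denervated control muscle, and that over 6 endothelial markers 25782 to 28343 and 16462 to 16982. The part of these cells in the Vim result was not tested.

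Nestin was lower in denervated MCK::cre than in denervated control muscle, and among the 8 genes it alone had such a call beside Krt8 and Krt18. On the brightest probe set (1449022_at) it read 2895, 2825 and 3224 in innervated and 5230, 3393 and 3521 in denervated control muscle. MCK::cre muscle read 2451 and 2374 with the nerve and 1662, 1841 and 1841 without it. All denervated control arrays lay above all innervated ones and all denervated MCK::cre arrays lay below all others. In denervated muscle Nes was 2.22-fold lower in MCK::cre than in control (log2 difference -1.15 ± 0.17, limma adjusted p = 0.00394), to 44.0% of the control mean. The change with denervation was 0.41 ± 0.17 in control muscle, of which 0.21 was left without denervated control array 1, and -0.44 ± 0.19 in MCK::cre muscle (limma adjusted p = 0.115), where spike-in centring gave 0.04. The interaction of -0.85 ± 0.26 did not pass (limma adjusted p = 0.329).

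The second Nes probe set (1418289_at) pointed the same way without passing. It read 1198, 1114 and 1228 in denervated control and 857.0, 494.2 and 869.3 in denervated MCK::cre muscle, which did not overlap, a log2 difference of -0.70 ± 0.27 (limma adjusted p = 0.301). The third (1453997_a_at) lay below the median of every array, with 18.48 to 314.0 over the 11 arrays, and was not tested.

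Lmna rose with denervation in MCK::cre muscle and was higher in control muscle to a like degree. Its brightest probe set (1421654_a_at) read 6834, 5936 and 8036 in innervated and 37894, 28740 and 36175 in denervated control muscle, a log2 change of 2.30 ± 0.15 (4.93-fold). With MCK::cre it rose from 6576 and 6289 to 28818, 28555 and 30455, by 2.18 ± 0.16 (4.54-fold, limma adjusted p = 1.01e-06). The next probe sets in brightness rose by 1.18 ± 0.20 and 1.68 ± 0.24 there (limma adjusted p = 9.60e-04 and 2.51e-04). The 2 dimmest probe sets, at most 1062 on any array, changed by 0.19 ± 0.32 and -0.54 ± 0.81 and did not pass (limma adjusted p = 0.692 and 0.664). Denervated muscle of the 2 genotypes differed by -0.22 ± 0.15 on the brightest (limma adjusted p = 0.653), and by -0.25, 0.07, -0.06 and -0.37 on the others, of which 0 passed.

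**Figure D3:**
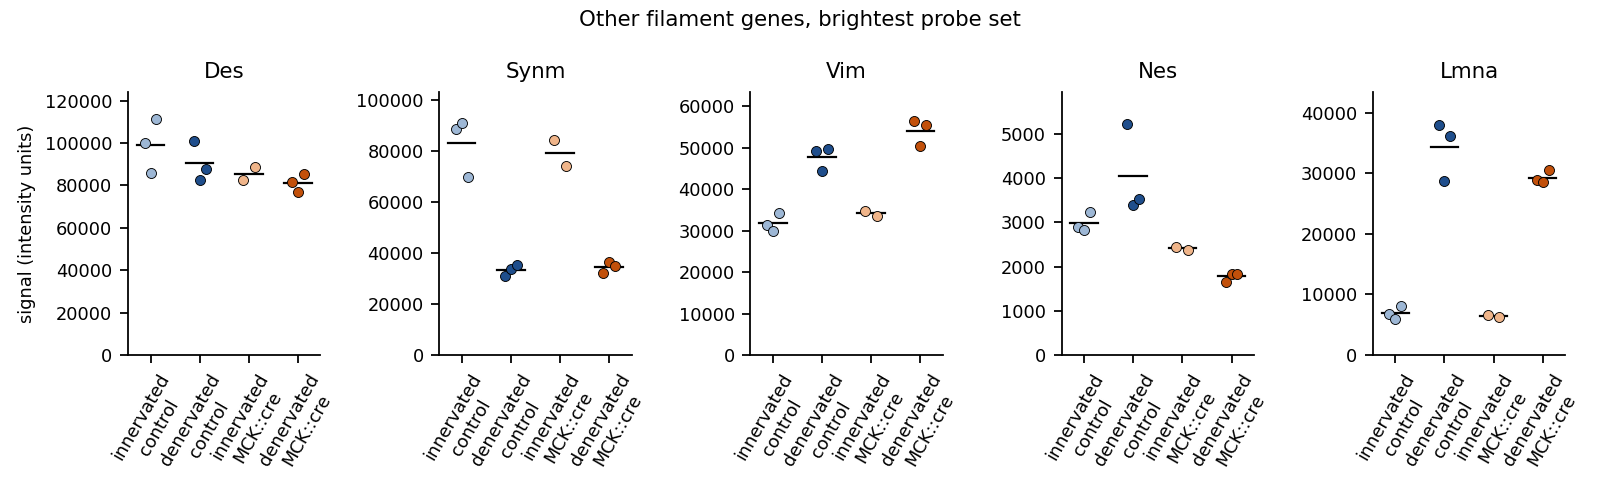
Signals of the brightest probe set of Des, Synm, Vim, Nes and Lmna on each array (linear axes from 0, intensity units, a separate scale per gene); points are arrays and lines group means. Synm reads 69913 to 90745 on innervated and 30857 to 36346 on denervated arrays, Lmna lies at 28555 or more on denervated arrays only, and Nes is lowest on denervated MCK::cre arrays.

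**Figure D4:**
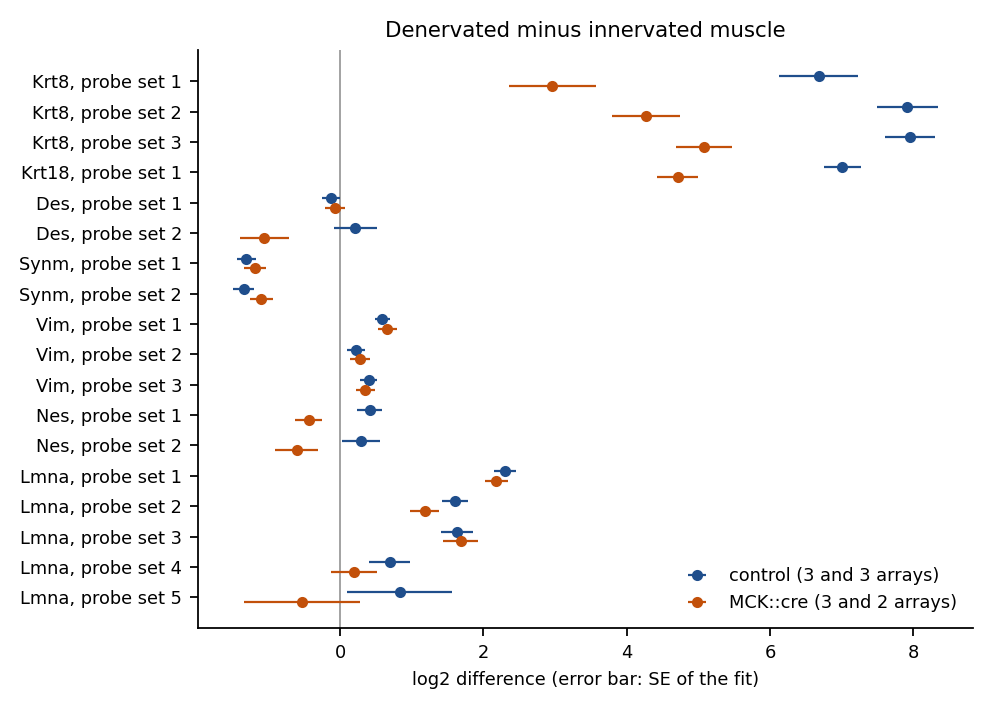
Log2 change with denervation of the 18 tested probe sets in control (blue) and MCK::cre (orange) muscle; points are fitted changes and bars their SE. The keratin probe sets lie between 6.68 and 7.95 in control and between 2.96 and 5.08 in MCK::cre muscle, while the brightest probe sets of Synm, Vim and Lmna lie close together in both.

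Of 17 linker genes, which tie filaments to membranes and junctions, 13 were tested. With denervation of control muscle 4 rose, 3 fell and 6 did not pass. With the replicate number as a block in just the control arrays 4 fell. Over all tested probe sets 14.9% rose and 14.4% fell there. Jup (plakoglobin, of desmosomes and of the fibre membrane) rose 3.63-fold, Macf1 (a spectraplakin that crosslinks microtubules and actin) 2.36-fold and Pkp2 (a desmosomal plakophilin) 2.18-fold, while Dmd, dystrophin, was 2.20-fold lower (limma adjusted p = 6.28e-06, 1.28e-05, 3.34e-04 and 7.74e-04). With MCK::cre 4 rose, 4 fell and 5 did not pass, against 13.1% up and 13.3% down over all, with Pkp2 up 4.30-fold and Jup up 2.70-fold (limma adjusted p = 6.96e-06 and 1.90e-04). Between genotypes in denervated muscle 2 of the 13 fell and 0 rose, where 1.83% of all changed. Dtna, dystrobrevin of the dystrophin complex, read 10087, 9863 and 8963 in control and 5002, 4074 and 5495 in MCK::cre muscle, 1.99-fold lower (limma adjusted p = 0.00842). Macf1 read 23384, 22311 and 20604 in control and 16279, 12770 and 14076 in MCK::cre muscle, a difference of -0.63 ± 0.13 (limma adjusted p = 0.0257), a call that ended with the replicate number as a block (limma adjusted p = 0.0513).

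Among 11 further intermediate filament genes 4 were tested. Sync, syncoilin, a partner of desmin at the membrane, rose 2.34-fold in control muscle, from 1788, 2903 and 1652 to 5489, 6196 and 3290 (limma adjusted p = 0.00217), and 1.80-fold in MCK::cre muscle (limma adjusted p = 0.0390). Gfap rose in MCK::cre muscle from a mean of 129.1 to 475.5 (limma adjusted p = 0.00370). Both innervated MCK::cre arrays were below their highest trp signal, against which the rise was at least 1.72-fold. In control muscle Gfap differed by 0.18 (limma adjusted p = 0.731). Neither B-type lamin, Lmnb1 or Lmnb2, passed in control muscle (0.34 and 1.46, limma adjusted p = 0.195 and 0.0771), though Lmnb2 did with the replicate number as a block in the control arrays (limma adjusted p = 0.0251). Lmnb2 was at background on all 3 innervated control arrays. None of the 4 differed between genotypes in denervated muscle (limma).

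Of the chaperones and proteases that act on filaments, 9 were tested. In control muscle 6 rose (5 with the replicate number as a block in all arrays), 1 fell and 2 did not pass. Over all tested probe sets 14.9% rose. The median log2 change of the 9 was 0.59, against -0.01 over the 12214 tested genes. This list was chosen with earlier results of these data known, so nothing is read from its count or median. The small heat shock genes Hspb8 and Hspb1 rose 3.53-fold and 3.86-fold, and Dnajb6, a cochaperone, rose 1.81-fold, while the calpain Capn1 was 2.41-fold lower (limma adjusted p = 6.61e-07, 6.62e-05, 8.90e-04 and 2.84e-04). With MCK::cre 4 rose (3 with that block), 1 fell (Capn1) and 4 did not pass, where 13.1% of all rose. In denervated muscle 1 of the 9 differed between genotypes: Hspa1b, an inducible Hsp70, read 8056, 6082 and 7161 in control and 2023, 2383 and 1653 in MCK::cre muscle, and fell by 1.81 ± 0.38 (log2, limma adjusted p = 0.0257).

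Of the partners of Lmna at the nuclear envelope 15 were tested, and 2 rose, 6 fell and 7 did not pass in control muscle. With the replicate number as a block, in all arrays or in just the control arrays, 3 rose. Over all tested probe sets 14.9% rose and 14.4% fell there. Syne1, a nesprin, rose 2.74-fold, while Syne2 was 2.92-fold, Tor1aip1 2.05-fold and Sun2 2.28-fold lower (limma adjusted p = 8.28e-05, 2.55e-05, 5.43e-04 and 0.00237). With MCK::cre 4 rose, 2 fell and 9 did not pass, against 13.1% up and 13.3% down over all. The block in all arrays gave 3 up and 3 down. Between genotypes in denervated muscle 0 of 15 passed, where 1.83% of all did.

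Markers of epithelium, where Krt8 and Krt18 are best known, were mostly dim. Of 12 such markers 11 were on the array and 5 were tested. Cdh1, Krt1 and Esrp1 stayed on every array within 440.0, the highest trp signal over all arrays. Against its own arrays, Cdh1 was above background in innervated MCK::cre muscle (317.5 to 347.4, with trp signals of at most 310.3). With denervation of control muscle 1 of the 5 rose (Elf3, 2.24-fold, limma adjusted p = 0.00168) and 0 fell. Over all tested probe sets 14.9% rose and 14.4% fell there. With the replicate number as a block in just the control arrays 1 of the 5 fell. In MCK::cre muscle 2 rose and 1 fell (2 and 0 with the block in all arrays), against 13.1% up and 13.3% down over all. The summed signal was 4399 to 4864 in innervated control, 4506 to 5230 in denervated control, 4452 to 6338 in innervated MCK::cre and 6224 to 7741 in denervated MCK::cre muscle. Between genotypes in denervated muscle 1 of the 5 rose and 0 fell, where 0.806% of all rose and 1.02% fell. Krt10 (-0.05), Krt5 (0.14) and Epcam (0.23) did not pass (limma adjusted p = 0.971, 0.933 and 0.911). Grhl2, which was not tested, read 280.6 to 812.1 in denervated control and 219.0 to 295.3 in denervated MCK::cre muscle, so the markers did not share an order. Elf3, an epithelial transcription factor, read 803.3, 1111 and 1044 in denervated control and 2049, 2291 and 2320 in denervated MCK::cre muscle, a rise of 1.17 ± 0.23 (log2, limma adjusted p = 0.0167). Cldn4, a tight junction claudin, read 78.69, 573.1 and 356.4 against 1925, 1431 and 1993, a difference that did not pass (2.70 ± 0.65, limma adjusted p = 0.0583) and that is at least 3.84-fold against trp signals, since 1 of 3 denervated control arrays lay at background. The part of epithelial cells in the keratin result was not tested. Of the 12 markers, Krt1, Krt5, Krt10 and Krt14 also belong to the list of further keratins.

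Some markers of immature fibres were, like the keratins, lower in denervated MCK::cre than in denervated control muscle. The summed signal of 5 such markers was 4712 to 5561 in innervated and 76377 to 122978 in denervated control muscle. It was 4055 to 6012 in innervated and 70923 to 78843 in denervated MCK::cre muscle. Most of it in denervated muscle was Myog, with means of 84877 in control and 68877 in MCK::cre muscle. With denervation 4 of the 5 rose and 0 fell in control muscle, where 14.9% of all tested probe sets rose. In MCK::cre muscle 2 rose, 1 fell and 2 did not pass, against 13.1% up and 13.3% down over all. Between genotypes in denervated muscle 2 fell and 0 rose, where 1.02% of all fell. As these markers were listed with earlier results of these data known, nothing is read from their counts. Myh3, the embryonic myosin heavy chain, read 15508, 10189 and 7251 in denervated control and 545.0, 490.8 and 430.3 in denervated MCK::cre muscle, and fell by 4.38 ± 0.31 (log2, limma adjusted p = 1.74e-05). Mymk, the fusion protein of myoblasts, averaged 1897 and 177.5 in these groups (limma adjusted p = 0.00315). It was at or below the highest trp signal on 2 of 3 denervated MCK::cre arrays, so it was at least 7.95-fold lower there. Unlike the keratins, Myh3 and Mymk did not rise with denervation in MCK::cre muscle. Their log2 changes there were -0.42 and -0.82 (limma adjusted p = 0.399 and 0.302). Myog rose in both genotypes, 66.2-fold in control and 57.8-fold in MCK::cre muscle (limma adjusted p = 5.21e-09 and 2.61e-08). Of 8 satellite cell and myoblast markers 1 differed between genotypes in denervated muscle, where 1.83% of all tested probe sets did. This was Itga7, the muscle laminin receptor subunit, which fell by 1.29 ± 0.15 (limma adjusted p = 7.20e-04). The part of these cells in the keratin and Nes results was not tested.

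Mature fibre markers marked the tissue as labelled. The 9 genes summed to 1974123 to 2248561 in innervated control, 1302009 to 1874943 in denervated control, 2116745 to 2394676 in innervated MCK::cre and 1349878 to 1680874 in denervated MCK::cre muscle. Of the 9, 6 fell with denervation in control and 8 in MCK::cre muscle (4 in each with the replicate number as a block in all arrays). Over all tested probe sets 14.4% fell in control and 13.3% in MCK::cre muscle. Between genotypes in denervated muscle 0 of the 9 passed, where 1.83% of all did. Runx1 itself read 23499 to 25898 in denervated control and 20403 to 23185 in denervated MCK::cre muscle on its brightest probe set. Where that probe set lies relative to the deleted part is not known here, so it checks nothing about the deletion.

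Some other genes followed the filament genes closely over the 11 arrays, which are given as Pearson r on log2 signals and as a description, since the 4 groups set most of each r. The 5 most like the mean of Krt8 and Krt18 were Cd82 (r = 0.992), Serpinb6a (r = 0.990), Mapt (r = 0.988), Fgf13 (r = 0.986) and Pvr (r = 0.984). Cd82, a tetraspanin, read 30705, 37079 and 29246 in denervated control, 12414, 10463 and 11606 in denervated MCK::cre and 2504 to 3024 on the innervated control arrays. It fell by 1.49 between genotypes in denervated muscle (limma adjusted p = 1.65e-04), with an interaction of -1.54 (limma adjusted p = 0.0122). Mapt, the microtubule protein tau, and Fgf13 fell by 0.67 and 0.60 between genotypes there (limma adjusted p = 0.0300 and 0.0265), while Serpinb6a and Pvr did not pass.

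The genes nearest to Nes were Itga7 (r = 0.934), Pigu and Rbm24 (r = 0.925 each). Itga7 read 9313, 7350 and 8216 in denervated control and 3882, 2988 and 3288 in denervated MCK::cre muscle, so that, like Nes, it was lowest in denervated MCK::cre muscle. Synm was most like Ptprs (r = 0.995), Nampt (r = 0.994) and Hr (r = 0.991), and Lmna most like Anxa7 (r = 0.996), Nap1l1 and Anxa4 (r = 0.994 each). Vim was most like Pdpn (r = 0.989), Psmc2 and Cst6 (r = 0.986 each). The nearest to Des reached only r = 0.928 (Polb), 0.884 (Mertk) and 0.857 (Acer2), and those to Krt19 only 0.862 (Bpifb1), 0.856 (Znrf3) and 0.844 (Zbed3).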

How the data were processed

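The deposited values are probe set intensity signals, not on a log scale. All arrays have the same 2% trimmed mean, 2500, so the authors had scaled them to it; software and genome build are not given in the sources used here. Array medians lay between 442.5 and 604.6. Precision is limited by how few arrays there are. The signals were used as log2(signal + 16), which understates changes of dim genes. After removal of 64 Affymetrix control probe sets, 26170 probe sets above their array's median on at least 2 arrays were tested. Of 45101 probe sets, 34958 had exactly 1 gene symbol, 932 had several and 9211 were not listed.

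Group means were modelled over all 11 arrays together with limma 3.58.1 in R 4.3.3 (eBayes with trend, Benjamini-Hochberg over all tested probe sets, threshold 0.05), and the fit was tested on simulated data. Arrays of equal number deviated together in innervated and denervated control muscle (r = 0.11, 0.22 and 0.30), over 0.1 in each of 3 pairs. Arrays of unequal number were not compared, so whether these numbers pair the control samples is not known. Between other groups r was -0.18 to 0.10. As planned, the values given are from the fit without a block. Fits with the replicate number as a block, in all arrays or in the control arrays, were alternatives. Their results stand beside the calls of named genes and the list counts that they change.

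The filament genes, the other gene lists and the naming rule were chosen with earlier results of these data known. Nothing is therefore read from the counts of calls in the other lists. All probe sets of the filament genes are given. From each other list at most 4 genes with the smallest p are named, on the brightest probe set, as are the 5 genes (Krt8 and Krt18) or 3 genes (the rest) with the highest r. Myog, Ptprc, Adgre1, Itgam, Krt1, Krt5, Krt10 and Krt14 were named as parts of their lists.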

Additional observations from a re-analysis of the deposited data

Results flagged for a closer look

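The change with denervation differed between genotypes by a test of the difference itself for 3 keratin probe sets. The interaction (change in MCK::cre minus change in control muscle, log2, limma) was -2.31 for Krt18, -3.65 for the second Krt8 probe set and -2.86 for the dimmest. Both Krt8 values rest on innervated signals at background, and all 3 rest on signals that were known when the genes were chosen.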

How the results depend on the processing

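Of the filament probe sets, the 5 calls between genotypes in denervated muscle held in all 20 alternatives, and 10 of the 11 calls with denervation of MCK::cre muscle did, with the exception of the dim Des probe set. No value reversed its call. Centring on spike-in RNAs called 15569 probe sets with denervation of control muscle (14851 up) and 1396 between genotypes in denervated muscle (54 up, against 211 of 478). In MCK::cre muscle it gave 6969 of 7986 up and median scaling 5732 of 7375, against 3416 of 6894. Median scaling gave 225 of 405 up between genotypes in denervated muscle and 28 of 56 in the interaction, and spike-in centring 2 of 77, against 22 of 65. Without the eBayes trend 279 were called between genotypes in denervated and 3 in innervated muscle and 10 in the interaction, where 0 filament probe sets remained. With a pseudocount of 1 or with median scaling 1 filament probe set passed the interaction. The cause of these shifts was not tested. Leaving out 1 array gave 6174 to 7603 calls with denervation of control and 4337 to 8082 of MCK::cre muscle (filament probe sets 10 to 12), with 4595 and 4337 without innervated MCK::cre array 1 and 2. It gave 223 to 638 between genotypes in denervated (filament 5), lowest without denervated control array 1, and 0 to 12 in innervated muscle (filament 0), highest without innervated MCK::cre array 1. The interaction had 16 (without innervated MCK::cre array 2) to 108 (without innervated control array 2), filament 0 to 3. Without denervated control array 2 or any single denervated MCK::cre array, 245 to 278 were called between genotypes in denervated muscle. With the replicate number as a block in all arrays the 5 comparisons called 7515, 6083, 460, 0 and 45. A block fitted to just the 6 control arrays, chosen after seeing the data, called 8312. The block ended the calls of the dim Des probe set and of the dimmest Krt8 interaction and changed no other filament call. Of the calls of single genes given from the other lists it ended that of Macf1 between genotypes, and in just the control arrays it added calls of Lmnb2 and Krt10 (-0.60, limma adjusted p = 0.0372) with denervation. Signals near the trp range limit what can be read of Krt8 in innervated muscle, of Krt19 and of the dim Nes and Lmna probe sets.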
